A study of Homo sapiens with 8 samples.

Results

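The tubulin genes TUBA1A, TUBA1B and TUBA1C (α-tubulin), TUBB, TUBB2A, TUBB2B, TUBB3, TUBB4B and TUBB6 (β-tubulin) and TUBG1 (γ-tubulin) were followed in factory RNA-Seq of IMR90, a line of human fetal lung fibroblasts. They were selected by symbol, and all 10 were found among the 28265 genes counted. The 4 conditions, with 2 libraries each, were control (low passage wild type cells, labelled young), 3 days of ICM, 6 days of ICM, and cells labelled MetaICM, a low passage treatment whose label is not explained in the sources used here and which was taken as a condition of its own. ICM is inflachromene, a small molecule that binds the chromatin proteins HMGB1 and HMGB2, and continuous exposure of this line to it was studied as a trigger of a senescence-like arrest. Factory RNA-Seq is described in the study's methods as a readout of nascent RNA, whereas the labels of these libraries give poly(A)+ selection of total RNA, so the exon counts used here can hold mature as well as nascent RNA. The sources name neither a vehicle for the control libraries nor separate cultures for the 2 libraries of a condition, and p-values then measure the spread between these libraries, which may be technical.

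Microtubules are hollow filaments built from heterodimers of α- and β-tubulin, and γ-tubulin, in ring complexes with its partner proteins, nucleates them at the centrosome and elsewhere. Humans carry several genes for each of the α and β subunits, called isotypes. Their proteins are nearly alike along most of their length and differ chiefly at the acidic C-terminal tail, which is where many microtubule-binding proteins and modifying enzymes act. TUBA1B, TUBA1C, TUBB, TUBB4B and TUBB6 are expressed in many tissues, while TUBB3 and TUBB2B are best known from neurons. Cells also control tubulin after transcription, as free tubulin promotes the decay of tubulin mRNA while it is being translated.

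Because isotype genes are so alike, the sequences decide which reads can be told apart. TUBB2A and TUBB2B, neighbours on chromosome 6, differ at 25 of 1338 coding bases (stop codon included), and 725 coding bases in a row, from base 610 to base 1334, are the same in both. The last 90 coding bases, from codon 417 to the stop codon, are shown since they encode the C-terminal tail. They lie in one exon of each gene on the minus strand of GRCh37 (hg19), at chr6:3154097-3154186 for TUBB2A and chr6:3224985-3225074 for TUBB2B, and capitals mark the bases that differ.
TUBB2A: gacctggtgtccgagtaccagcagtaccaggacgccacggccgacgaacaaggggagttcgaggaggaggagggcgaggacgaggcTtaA
TUBB2B: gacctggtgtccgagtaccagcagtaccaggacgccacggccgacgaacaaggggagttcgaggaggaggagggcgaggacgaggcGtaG
Only 2 bases of this window separate the genes, and the second of them lies in the stop codon.

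The α-tubulin genes sit within one cluster on chromosome 12 and are 96.0% to 97.3% identical in their coding sequence. Among the β-tubulin genes apart from the TUBB2A and TUBB2B pair, coding identity was 81.3% to 88.2%.

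Counted over whole exons, 50.3% of the 100-base stretches that start in TUBB2A and 46.9% of those in TUBB2B occur elsewhere in GRCh37, and 828 stretches of each gene are found in the other. The share was 34.6% for TUBA1B, 13.6% for TUBA1A and 10.6% for TUBA1C, mostly with each other. For TUBG1 it was 11.5%, all in the neighbouring gene TUBG2. TUBB3, TUBB4B and TUBB had 4.24%, 2.82% and 1.6%, and TUBB6 had none. A read pair within such a stretch has no single place. Whether such pairs were counted is not settled by the sources used here: the counting command kept primary alignments only, which does not by itself say how read pairs with several places were treated. SERF1A, SERF1B, BOLA2 and BOLA2B, of whose 100-base stretches 95.6% to 100% occur elsewhere, held 0 counts in all 8 libraries, but these 4 genes were picked after their values had been seen and are given as a description. Levels per length are therefore given over the whole exons. Where the order changes, the same counts are also divided by the number of exon bases whose 100-base stretch is found once. No reads were recounted for this, and it suits only the case in which pairs without a single place were left uncounted. A read placed on the wrong paralog cannot be recognised. The search covered the primary assembly and not the alternative haplotypes, and the annotation places TUBB on 8 sequences, chromosome 6 and such haplotypes. Whether the authors' alignment held those haplotypes is not known. The 1.6% of TUBB, its level and its shares carry this limit.

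**Figure D1:**
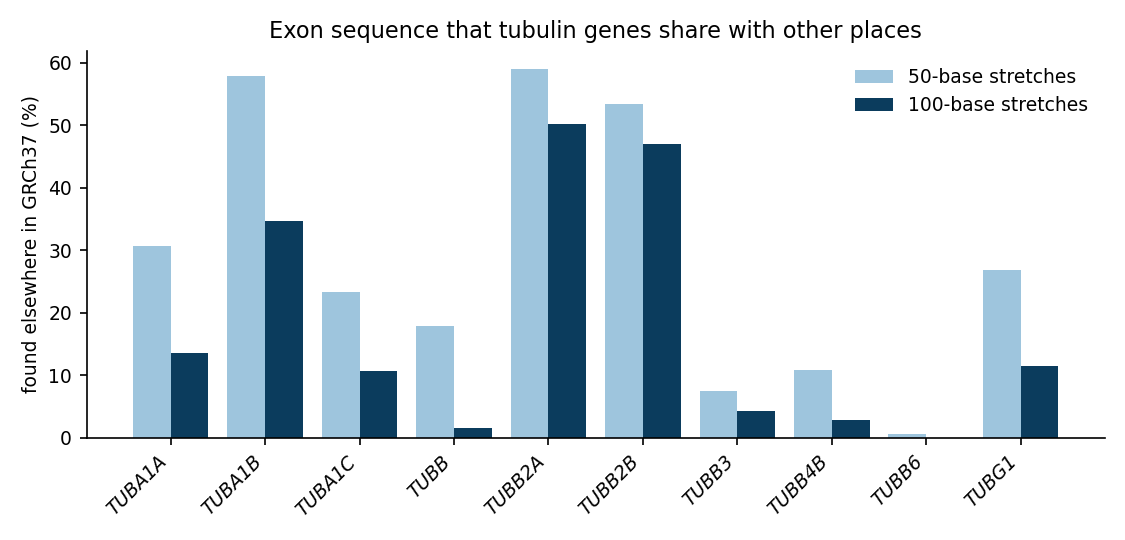
Share of the 50-base (light) and 100-base (dark) stretches starting in each gene's exons that occur at another place of the GRCh37 primary assembly, in percent, for the 10 tubulin genes. TUBB2A, TUBB2B and TUBA1B share most, and TUBB6 has no shared 100-base stretch.

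The libraries held 12095123 to 23166405 counted read pairs, of which the 10 genes together took 0.296% to 0.487%. The lowest member count was 38 (TUBB2B, 3 days), and all members passed the filter on low counts in every comparison. Of the fibroblast markers examined, the collagens COL1A1, COL1A2 and COL3A1, fibronectin (FN1) and vimentin (VIM) were abundant in every condition, the lowest being vimentin with a mean of 1270 CPM after 6 days (CPM are counts scaled to library size), while S100A4 had at most 19 counts in a library. Markers of epithelium, endothelium and leukocytes summed to 51.6 to 99.5 CPM, most of it KRT18, with CDH5 at no more than 1 count and SFTPC at no more than 2 counts, against 20737 to 60140 CPM for the 10 fibroblast markers. Of 5 such markers tested, 1 was higher and 2 lower than in control after 3 days, beside 8.85% and 13.2% of all genes tested. After 6 days 2 were higher and 2 lower, beside 13.3% and 17.2%. In MetaICM, 1 of 4 tested was higher and 0 lower, beside 7.41% and 8.99%. CD68, a marker of macrophages, was higher, with means of 4.79 CPM in control and 18.2, 18.1 and 12.9 CPM after 3 days, after 6 days and in MetaICM, VWF was higher at 6 days (2.50 and 4.70 CPM), and KRT18 and KRT19 were lower at both time points. The fibroblast sum was highest in control, and 7 of its 10 genes were lower after 3 days, beside 13.2% of all genes tested, and 6 of 9 tested after 6 days, beside 17.2%. The part of either marker list in the tubulin differences was not tested.

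The 2 control libraries stood apart for the tubulins. Levels in control 1 were 0.97 to 1.49 times those in control 2, with a median ratio of 1.34, and 9 of 10 members were higher in control 1, while the median ratio over 9281 genes with a mean of at least 10 CPM was 1.02. In the other conditions the members' median ratio lay between 0.93 and 1.01. The control pair also spread most over the 9281 genes, with a 5th to 95th percentile of the ratio of 0.75 to 1.45. That range was 0.80 to 1.25 after 3 days, 0.85 to 1.21 after 6 days and 0.84 to 1.14 in MetaICM. For members called against control, and for the summed α- and β-tubulin counts, values with each control library left out are therefore given as well. The control that remains is then assumed to vary as the other condition does. For genes outside the 10 members such values are not given, so their calls against control carry this limit. Calls between ICM conditions do not depend on control.

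Over whole exons, TUBB had the highest level per length in control, 526 ± 72.2 CPM per kb of exon (SD, n = 2 libraries), ahead of TUBA1B with 438 ± 121 CPM per kb, whose libraries overlapped those of TUBB. TUBA1A (232 ± 51.0 CPM per kb) and TUBB4B (185 ± 49.3 CPM per kb) followed and overlapped each other, and so did TUBB6 (114 ± 20.9 CPM per kb) and TUBA1C (93.5 ± 18.6 CPM per kb). TUBB3 (68.0 ± 14.7 CPM per kb), TUBB2A (26.8 ± 6.53 CPM per kb), TUBG1 (13.5 ± 1.28 CPM per kb) and TUBB2B (5.09 ± 0.111 CPM per kb) were lower, each apart from the next. TUBB and TUBA1B led and TUBG1 and TUBB2B came last in all 4 conditions. The order of the leading pair depends on the length. With the same counts divided by the bases found once (an alternative added after seeing the data), TUBA1B stood first in all 4 conditions. It then had 669 ± 185 CPM per kb against 535 ± 73.4 CPM per kb for TUBB in control, where their libraries overlapped. After 6 days, over whole exons, TUBB4B stood above TUBA1A, TUBA1C above TUBB6 and TUBB2A next to TUBB3, whose libraries it overlapped, whereas the order after 3 days and in MetaICM was that of control. With the same counts divided by the bases found once, TUBB2A came to 85.1 ± 4.76 CPM per kb after 6 days. TUBB3 came to 42.3 ± 2.74 CPM per kb, with the libraries apart. TUBA1C was again above TUBB6, and TUBB4B and TUBA1A overlapped. The place of TUBB2A next to or above TUBB3 thus depends on the length used.

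**Figure D2:**
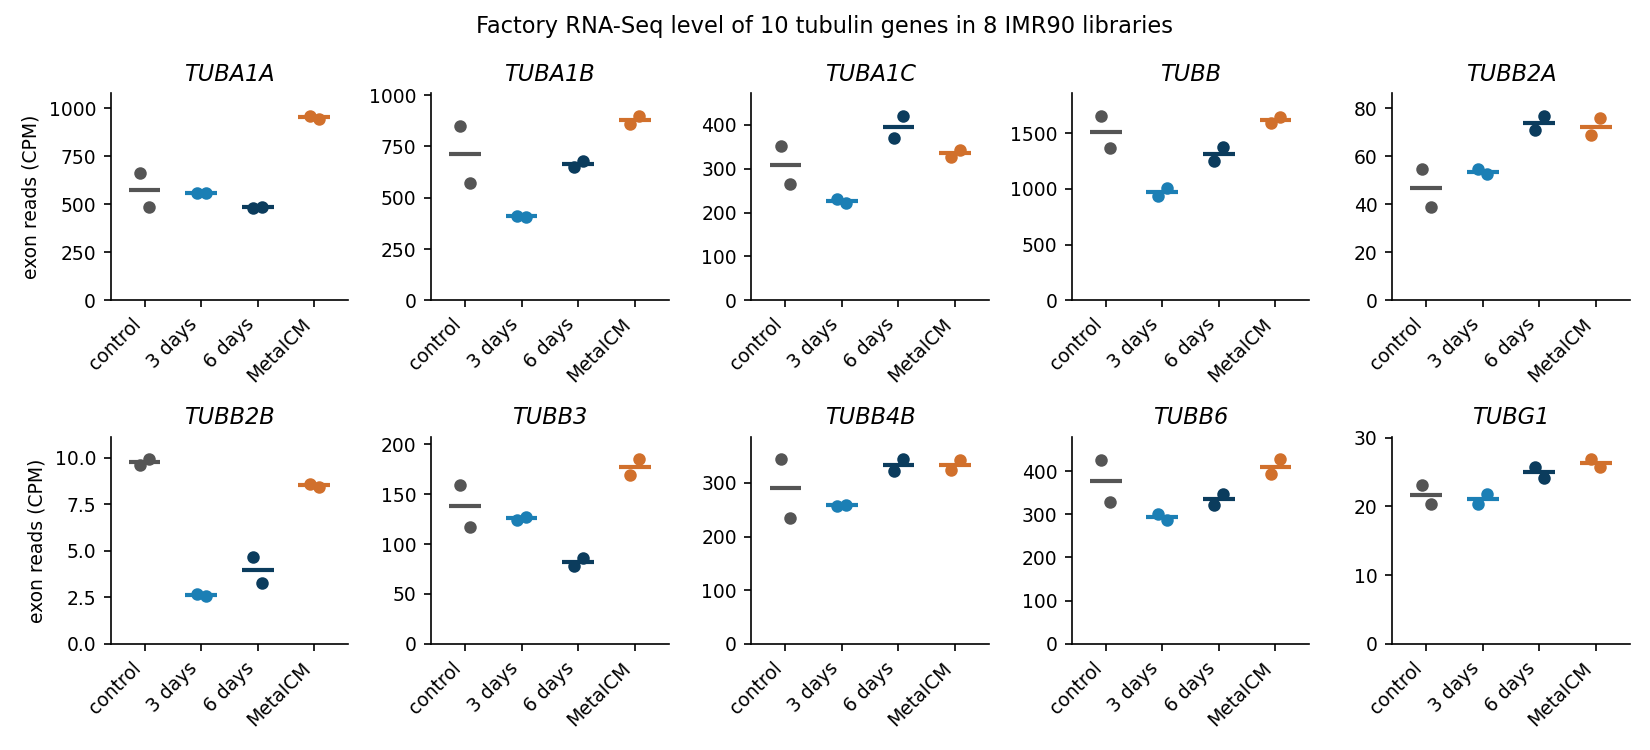
Level of each tubulin gene in exon reads scaled to library size (CPM, linear axis from 0) in the 4 conditions; points are the 2 libraries and bars their mean. TUBB2B is low after 3 and 6 days, TUBB3 is lowest after 6 days, TUBA1B is lowest after 3 days, and the 2 control points lie apart in most panels.

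After 3 days of ICM, 3 members were lower than in control and none was higher. A gene was called when its edgeR quasi-likelihood test gave a Benjamini-Hochberg adjusted p under 0.05 and its absolute log2 fold change (log2FC) was over 0.6. By this rule 13.2% of all 15692 genes tested were lower and 8.85% higher (2067 and 1389 genes, or 1767 and 1785 with scaling to library totals), and with so few members the count alone is no result about the family. At an unadjusted p under 0.05, without the limit on fold change, 5 members were lower and 0 higher, and the matching share of all genes is not given. DESeq2 called 3 members lower and 0 higher, where it called 1782 of all genes lower and 1135 higher. Scaling to library totals left 2 members lower, without TUBB.

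TUBB2B, on chromosome 6 from 3224511 to 3227887, had the largest absolute log2FC. It measured 9.63 and 9.93 CPM in control and 2.67 and 2.56 CPM after 3 days, so the groups were well apart, with 162 and 120 counts against 58 and 38. The log2FC was −1.90 (SE 0.24, edgeR adjusted p = 8.00e-05), and −1.92 and −1.90 without control 1 and control 2. TUBA1B, on chromosome 12 from 49521565 to 49525178, measured 851 and 573 CPM in control and 413 and 404 CPM after 3 days. Both treated libraries were below both controls, and the log2FC was −0.80 (SE 0.17, edgeR adjusted p = 0.0036). Without control 1 it was −0.49 and the call was lost to the limit on fold change. TUBB, on chromosome 6 from 30688129 to 30693195, measured 1656 and 1363 CPM in control and 932 and 1009 CPM after 3 days. Its log2FC of −0.64 (SE 0.14, edgeR adjusted p = 0.0049) became −0.49 without control 1, −0.60 without the first 3-day library and −0.56 with scaling to library totals, and none of these was called. Without control 2 the log2FC was −1.08 for TUBA1B, −0.79 for TUBB and −0.66 for TUBA1C.

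The remaining 7 members had log2FC between −0.45 (TUBA1C) and 0.19 (TUBB2A). TUBA1C and TUBB6 were lower in both treated libraries than in both controls, yet missed a criterion: TUBA1C passed the p threshold only (log2FC −0.45, SE 0.14, edgeR adjusted p = 0.034), and TUBB6 neither (log2FC −0.36, SE 0.14, edgeR adjusted p = 0.072). TUBA1A, TUBB2A, TUBB3, TUBB4B and TUBG1 overlapped control.

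After 6 days TUBB2A was higher than in control, and TUBB2B and TUBB3 were lower. Of all 15950 genes tested, 13.3% were called higher and 17.2% lower. TUBB3, whose product is the βIII isotype, lies on chromosome 16 from 89988333 to 90002505 and measured 159 and 117 CPM in control and 78.3 and 85.9 CPM after 6 days. The treated libraries were below both controls, with a log2FC of −0.75 (SE 0.15, edgeR adjusted p = 0.0023). It was −0.52, short of the limit, without control 1. TUBB2B measured 4.67 and 3.29 CPM after 6 days, still below both controls (log2FC −1.30, SE 0.22, edgeR adjusted p = 0.0010), and was called whichever library was left out. Its near-identical neighbour TUBB2A, on chromosome 6 from 3153901 to 3157778, went the other way. From 54.9 and 38.7 CPM in control it reached 71.0 and 76.9 CPM, above both controls, with a log2FC of 0.65 (SE 0.16, edgeR adjusted p = 0.0075). Without control 2 the log2FC was 0.43 and not called. The counts behind these values were 1323 and 1447 for TUBB2A against 87 and 62 for TUBB2B, so the estimate for TUBB2B is the less precise one.

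TUBA1B and TUBB, both lower at 3 days, were not called at 6 days. TUBA1B measured 650 and 681 CPM, between the controls, with a log2FC of −0.10 (SE 0.16), and TUBB measured 1249 and 1376 CPM, with a log2FC of −0.21 (SE 0.13). TUBA1C measured 370 and 421 CPM against 352 and 265 CPM in control, above both controls by a small margin, but was not called (log2FC 0.35, SE 0.14, edgeR adjusted p = 0.068). The log2FC of TUBA1A was −0.25 (SE 0.14), that of TUBB6 −0.18 (SE 0.13), and those of TUBB4B and TUBG1 0.20 (SE 0.16) and 0.19 (SE 0.14), with none called.

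The time points were set against each other directly, which leaves control out of the estimate. TUBA1B and TUBA1C were higher after 6 than after 3 days, and TUBB3 was lower, where 3.53% of 15845 genes were called higher and 4.54% lower. TUBA1C, on chromosome 12 from 49621709 to 49668383, went from 231 and 221 CPM to 370 and 421 CPM (log2FC 0.80, SE 0.091, edgeR adjusted p = 4.03e-06). TUBA1B rose by a log2FC of 0.70 (SE 0.085, edgeR adjusted p = 9.87e-06). TUBB3 fell from 124 and 127 CPM to 78.3 and 85.9 CPM (log2FC −0.62, SE 0.091, edgeR adjusted p = 7.74e-05), and its log2FC was −0.54, below the limit, without the first 6-day library. TUBB, TUBB2A and TUBB4B passed the p threshold with log2FC of 0.43, 0.46 and 0.37, under the limit on fold change. TUBB2B had a log2FC of 0.60 (SE 0.26) with an edgeR adjusted p = 0.12. TUBA1A, with a log2FC of −0.20 (SE 0.084), was the only member besides TUBB3 below 0. Members of one family therefore had opposite signs between the same libraries.

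**Figure D3:**
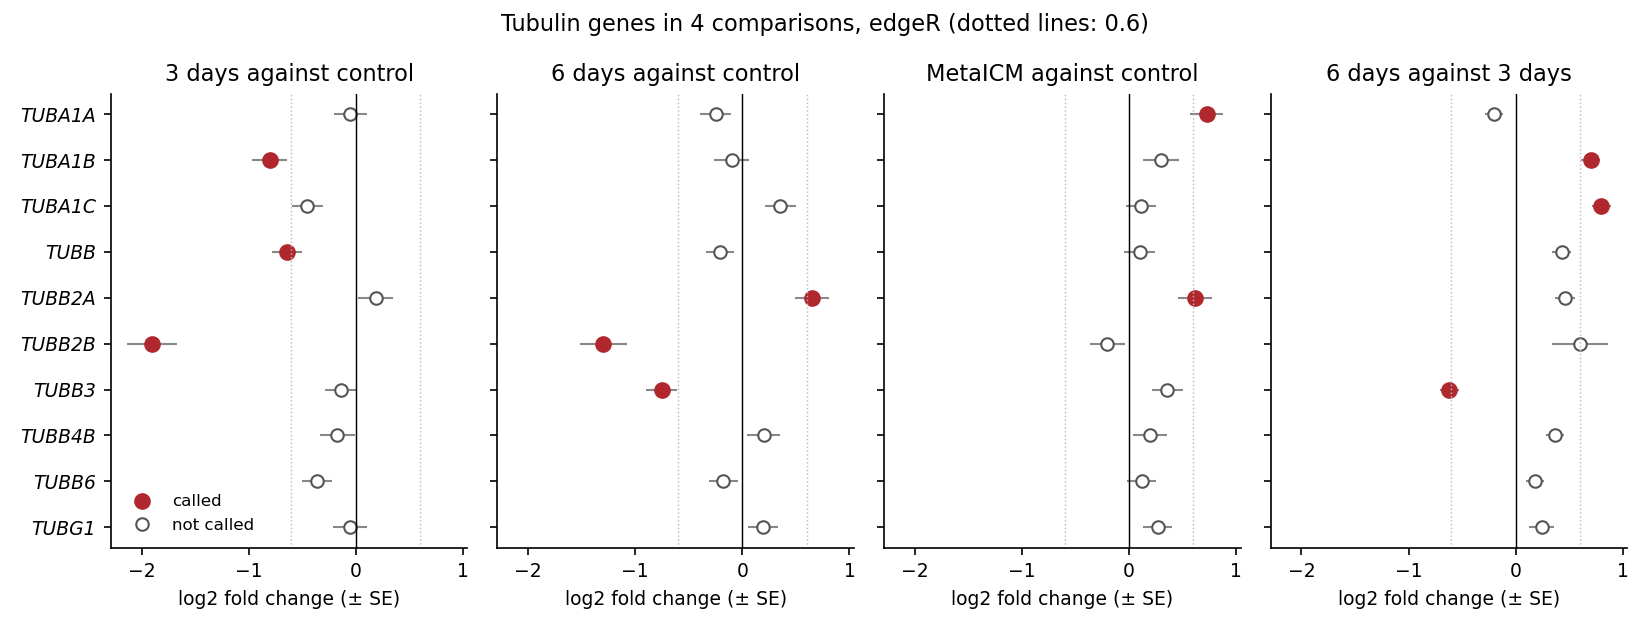
log2 fold change (± SE, edgeR) of the 10 tubulin genes in 4 comparisons; filled red points were called, open points were not, and dotted lines mark 0.6 in either direction. TUBB2B is far to the left at both time points against control, and in the direct comparison of time points TUBA1B and TUBA1C lie right of 0.6 and TUBB3 left of −0.6.

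MetaICM libraries had higher levels of TUBA1A and TUBB2A than control, and no member was lower, also at an unadjusted p under 0.05 (0 of 10) and with DESeq2 (0). Over all genes DESeq2 called 949 higher and 1144 lower, and the share at the unadjusted p is not given. Of 15904 genes tested, 7.41% were called higher and 8.99% lower. TUBA1A, an isotype abundant in developing neurons that lies on chromosome 12 from 49578578 to 49583107, measured 665 and 486 CPM in control and 962 and 947 CPM in MetaICM. Both were above both controls (log2FC 0.73, SE 0.15, edgeR adjusted p = 0.0075). TUBB2A measured 68.7 and 75.7 CPM, also above both controls, with a log2FC of 0.62 (SE 0.16, edgeR adjusted p = 0.016). Without control 2 the log2FC of TUBA1A and TUBB2A were 0.52 and 0.40, short of the limit. Without the second MetaICM library TUBB2A was at 0.56. Without control 1, TUBA1B and TUBB3, not called with all libraries, were at 0.62 and 0.604. TUBB2B measured 8.61 and 8.42 CPM, a little below control, with a log2FC of −0.20 (SE 0.17) that was not called.

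Against 3 and 6 days of ICM, MetaICM had several members higher and none lower, by edgeR as by DESeq2. Over all genes DESeq2 called 1754 higher and 1359 lower against 3 days, and 2101 higher and 1590 lower against 6 days. Compared with 3 days, TUBA1A, TUBA1B, TUBB and TUBB2B were higher, with log2FC of 0.78, 1.11, 0.74 and 1.70, where 13.1% of 16209 genes were called higher and 10.3% lower. The largest edgeR adjusted p of the 4 was 9.72e-06, for TUBB. All 10 members had a log2FC above 0 in this comparison, between 0.33 (TUBG1) and 1.70. Their median was 0.53, beside 0.0093 over all genes tested, and the share of all genes above 0 is not given. Compared with 6 days, TUBA1A, TUBB2B and TUBB3 were higher, with log2FC of 0.98, 1.10 and 1.11, where 15.7% of 16036 genes were called higher and 12.0% lower. The largest edgeR adjusted p of the 3 was 3.40e-05, for TUBB2B. TUBB3 measured 169 and 185 CPM in MetaICM, more than in any library of the other conditions, and TUBA1C, the 1 member lower at an unadjusted p under 0.05, had a log2FC of −0.24 (SE 0.077) and was not called. These comparisons share libraries, so their agreement on a gene is no independent support.

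TUBB4B, TUBB6 and TUBG1 were not called in any of the 6 comparisons. TUBB4B, on chromosome 9 from 140135739 to 140138159, ranged from 235 to 344 CPM over the 8 libraries, and control alone spanned that range. TUBB6, on chromosome 18 from 12307668 to 12329824, ranged from 288 to 428 CPM. Exons of TUBB4B share 108 bases with FAM166A on the opposite strand and those of TUBB6 share 638 bases with AFG3L2, and as counting ignored strand, pairs there belong to neither gene by default. TUBG1, on chromosome 17 from 40761701 to 40767256, was the steadiest member, at 20.3 to 26.9 CPM, with a root mean square deviation of 0.14 around its mean log2 level against 0.72 for TUBB2B.

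A sum over paralogs is not moved by a read exchanged between the genes summed, but it is moved by one placed elsewhere or left uncounted. Some 100-base stretches also occur where no RefSeq exon lies, 96 of TUBA1B, 161 of TUBB2A, 185 of TUBB2B and 46 of TUBB. The 3 α-tubulin genes summed to 1868 and 1324 CPM in control, 1202 and 1182 CPM after 3 days, 1503 and 1588 CPM after 6 days and 2147 and 2188 CPM in MetaICM. The 6 β-tubulin genes summed to 2650 and 2093, 1671 and 1739, 2047 and 2233, and 2558 and 2686 CPM in the same order. For both sums the 3-day libraries were the lowest. Against control, the α sum had a log2FC of −0.42 (SE 0.16, edgeR adjusted p = 0.069) and the β sum −0.48 (SE 0.15, edgeR adjusted p = 0.028) after 3 days, and neither was called. After 6 days they were −0.049 (SE 0.16) and −0.15 (SE 0.14). Without control 2 both sums were called lower after 3 days (−0.65 and −0.64), and without control 1 they were −0.15 and −0.30. MetaICM exceeded 3 days by a log2FC of 0.87 in the α sum (SE 0.086, edgeR adjusted p = 1.50e-06) and 0.63 in the β sum (SE 0.088, edgeR adjusted p = 5.18e-05), and these were the only sums called. Scaling to library totals put the β sum at 0.57, below the limit. The ratio of α to β RNA per length was 0.86 and 0.78 in control, 0.82 and 0.77 after 3 days, 0.86 and 0.83 after 6 days and 1.01 and 0.98 in MetaICM, the one condition whose libraries lay above all others. With the same counts divided by the bases found once, it was 1.28 and 1.24 in MetaICM and 0.96 to 1.1 in the other libraries.

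Shares within each family do not depend on the overall level, in which the control libraries differed. TUBA1A made up 29.9% and 31.2% of α-tubulin RNA per kb in control, 41.0% and 41.6% after 3 days, 27.6% and 26.5% after 6 days and 38.3% and 36.8% in MetaICM. Its share was thus above control at 3 days, below it at 6 days and above it again in MetaICM, with no overlap. The level of TUBA1A after 3 days, 558 and 557 CPM, lay between the controls at 665 and 486 CPM. TUBA1B went from 58.2% and 56.0% to 46.2% and 45.9% after 3 days, returned to 56.5% and 56.3% after 6 days, within the control range, and was 51.9% and 53.2% in MetaICM. TUBA1C held 11.9% and 12.8% in control, 12.8% and 12.4% after 3 days, 15.9% and 17.2% after 6 days and 9.78% and 9.99% in MetaICM. The 6-day libraries were above, and the MetaICM libraries below, all control and 3-day ones.

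Of β-tubulin RNA, TUBB made up the largest share throughout, with 55.4% and 58.7% in control and 48.2% and 50.3% after 3 days. TUBB3 held 7.53% and 7.11% in control, 9.11% and 8.97% after 3 days, 4.71% and 4.75% after 6 days and 8.27% and 8.60% in MetaICM. Its share was thus higher than in control at 3 days, when its level overlapped control, and lower at 6 days. TUBB2A went from 3.02% and 2.74% to 4.64% and 4.30% after 3 days and 4.95% and 4.93% after 6 days, with 3.90% and 4.08% in MetaICM. TUBB2B never passed 0.64%. TUBB4B held 18.6% to 25.2% and TUBB6 11.8% to 13.5%. With 2 libraries per condition a two-sided exact permutation test of a share cannot go below 0.33, so none was made. With the length taken as the bases whose 100-base stretch is found once, all 27 differences from control (9 genes in 3 conditions) kept their direction, although single shares moved, as did the mean for TUBB2A in control, from 2.88% to 5.50%. Only the lengths changed there and the counts stayed the same, so reads placed on the wrong paralog were not addressed.

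**Figure D4:**
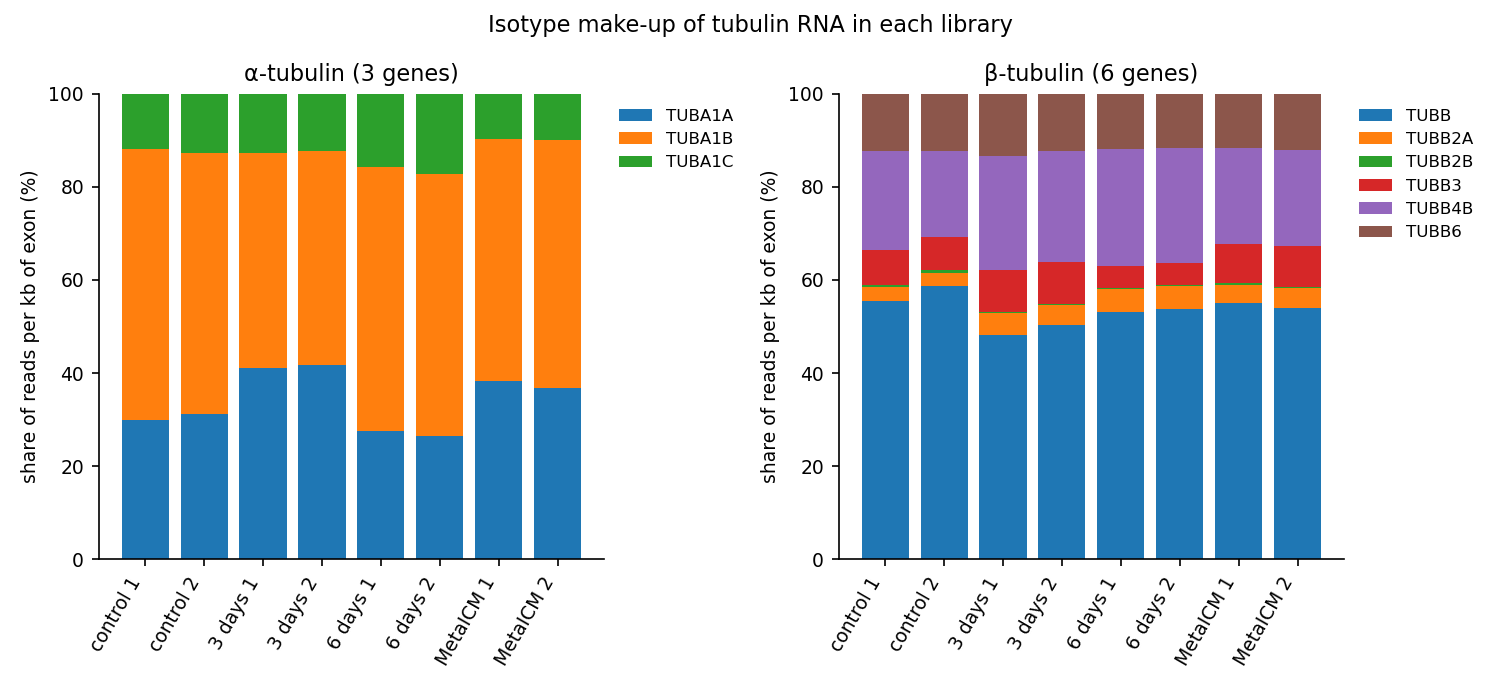
Share of each isotype in α-tubulin (3 genes, left) and β-tubulin (6 genes, right) RNA per kb of exon, in percent, in each of the 8 libraries. TUBA1A takes a larger part after 3 days and in MetaICM, TUBA1C after 6 days, and the TUBB3 band is thinnest after 6 days.

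The promoters of TUBB2A and TUBB2B, which went opposite ways at 6 days, were set side by side. The 250 bases before the annotated start (RefSeq, GRCh38.p14, minus strand, chr6:3157545-3157794 and chr6:3227654-3227903) were 54.2% identical when aligned, against 98.1% for the coding sequence. Capitals mark matches, on either strand, to the CCAAT box, with these letters, the TATA box TATAAA, the GC box GGGCGG, and TGACG, the start of the cAMP response element, and adjoining matches run together.
TUBB2A: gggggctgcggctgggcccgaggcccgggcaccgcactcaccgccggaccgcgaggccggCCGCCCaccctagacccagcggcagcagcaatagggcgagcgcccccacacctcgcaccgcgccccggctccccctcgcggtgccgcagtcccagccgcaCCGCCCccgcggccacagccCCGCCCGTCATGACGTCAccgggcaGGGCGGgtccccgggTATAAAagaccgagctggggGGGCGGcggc
TUBB2B: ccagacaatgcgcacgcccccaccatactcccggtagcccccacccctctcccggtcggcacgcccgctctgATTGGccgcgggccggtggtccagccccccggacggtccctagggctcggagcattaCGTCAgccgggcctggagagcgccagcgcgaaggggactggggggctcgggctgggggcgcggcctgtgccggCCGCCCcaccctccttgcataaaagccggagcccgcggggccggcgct
TUBB2A had a TATAAA match and several GGGCGG matches, and TUBB2B had a CCAAT match and a single GGGCGG. All 10 members had a promoter entry, some with several starts. At any of their starts, 8 of 10 held CCAAT, against 32.0% of 35116 promoters of that length, 8 held GGGCGG, against 42.6%, and 4 held TGACG, against 21.2%. TUBB2A was the 1 member with TATAAA, against 10.7%, and 2 members held TTTGAA, the letters of the cell cycle homology region, against 13.3%. A match describes letters only, and members with several starts had more chances of one.

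Among the 13 other tubulin genes, 7 passed the filter at 6 days against control, of which 2 were higher and 1 lower, beside 13.3% and 17.2% of all genes. TUBA4A, an α-tubulin gene outside the cluster, had a larger absolute log2FC than any of the 10 members at both time points. It measured 10.5 and 8.03 CPM in control, 71.9 and 69.2 CPM after 3 days, 105 and 110 CPM after 6 days and 21.6 and 22.1 CPM in MetaICM. The log2FC against control was 2.91 (SE 0.17, edgeR adjusted p = 1.10e-07) after 3 days and 3.52 (SE 0.15, edgeR adjusted p = 9.76e-08) after 6 days. Set beside the 3 clustered genes per kb, TUBA4A went from 0.45% and 0.50% of α-tubulin RNA in control to 5.46% and 5.48% after 6 days, so it stayed a minor isotype. TUBG2, the paralog of TUBG1, was higher after 6 days (log2FC 0.60, just over the limit, SE 0.14, edgeR adjusted p = 0.0053), and δ-tubulin (TUBD1) was lower (log2FC −1.05, SE 0.27, edgeR adjusted p = 0.011). TUBA3C, TUBA3E, TUBAL3, TUBB4A and TUBB8 had at most 4 counts in any library.

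Partners of γ-tubulin (ring complex subunits, their anchors and the augmin complex that amplifies spindle microtubules) were lower in part after ICM. Of 20 such genes, 11 were lower and none higher after 3 days, beside 13.2% of all genes lower, with a median log2FC of −0.62 against 0.0094 over all genes, and 10 were lower and none higher after 6 days, beside 17.2%. The augmin subunits HAUS8 and HAUS5 had the lowest values at 6 days, with log2FC of −1.73 (SE 0.24) and −1.69 (SE 0.18). In MetaICM none was lower than control and 1 was higher, beside 8.99% and 7.41% of all genes. Of 21 chaperones and assembly factors of tubulin, 1 was higher and 1 lower after 3 days, and 3 were higher and 1 lower after 6 days. These are 9.52% and 19.0% of the list, less than the 22% and 30.5% called in either direction over all genes. TTC5, which recognises nascent tubulin chains and triggers the decay of their mRNA, went from 15.5 to 29.5 CPM (log2FC 0.93, SE 0.16), and the prefoldin subunit PFDN5 from 50.8 to 92.0 CPM (log2FC 0.85, SE 0.14). TBCD, a cofactor that helps assemble the dimer, was lower (log2FC −0.61, just past the limit, SE 0.12).

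Of 18 tested enzymes that modify tubulin, 2 were higher and 5 lower after 6 days. TTLL7, a polyglutamylase of β-tubulin tails, rose at 6 days from 61.6 to 174 CPM (log2FC 1.49, SE 0.11), and AGBL3, a deglutamylase, was higher at a low level (log2FC 0.78, SE 0.27, edgeR adjusted p = 0.040). The detyrosinating enzymes VASH2 and VASH1, which remove the last residue of α-tubulin, were lower, with log2FC of −1.26 (SE 0.29) and −1.20 (SE 0.18). Among 35 tested microtubule-binding proteins, 6 were higher and 10 lower. MAP2, best known from dendrites, went from 9.86 to 91.0 CPM (log2FC 3.21, SE 0.14), and MAP1A, another structural protein of neuronal microtubules, from 461 to 1504 CPM (log2FC 1.70, SE 0.11). STMN3, a stathmin that binds free tubulin, went from 6.62 to 0.56 CPM (log2FC −3.56, SE 0.32), and the spindle midzone protein PRC1 from 122 to 10.4 CPM (log2FC −3.55, SE 0.15). Of the modifying enzymes 38.9% and of the binding proteins 45.7% were called in either direction at 6 days, beside 30.5% of all genes tested.

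Profiles over the 8 libraries were compared by the root mean square difference of mean-centred log2 CPM, among 9264 genes outside the family with a mean of at least 10 CPM. Near TUBA1B was EEF1A1 (0.11), an abundant translation factor whose mean was 2708 CPM in control, 1480 CPM at 3 days and 2532 CPM at 6 days. The nearest to TUBB2B was the cadherin CDH11 (0.093), at 375, 121, 155 and 318 CPM in control, 3 days, 6 days and MetaICM. TUBA1A was nearest to PPP1R9B (0.069) and ZMYND19 (0.082), TUBA1C to SCFD2 (0.11) and FSTL1 (0.12), and TUBB to FZD4 and PDE1C (0.076 each). TUBB2A was nearest to AAAS (0.055) and RBM42 (0.063), TUBB3 to OSBPL5 (0.071) and EHBP1L1 (0.083), and TUBB4B to NCL (0.058) and POGLUT1 (0.066). FBF1 (0.046) and RPL14 (0.053) were nearest to TUBB6, and TBC1D24 (0.048) and TARS2 (0.049) to TUBG1. Within the family, TUBB4B and TUBG1 were closest (0.12), then TUBB and TUBB6 (0.13), while TUBB2A and TUBB2B, the pair with the most similar sequence, were the farthest apart of all (0.83). This distance was not particular to the pair. TUBB2B, the member with the lowest counts, was the farthest from every other member, at 0.48 (TUBA1B) or more.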

How the data were processed

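Factory RNA-Seq libraries of IMR90 cells, 8 in 4 conditions, were analysed. Per the file headers and the submitters' processing notes, the authors aligned read pairs with STAR (version 2.6.0c) to hg19 (GRCh37) and counted them on RefSeq exons with featureCounts (version 1.6.3), both ends mapped, without chimeric pairs and without regard to strand. The deposited values are raw counts, 1 table per library. In the study, nascent RNA was quantified from intronic reads, not used here.

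Each pair of conditions (6 comparisons) was fitted apart with edgeR (version 4.0.16, R 4.3.3), with TMM factors, filterByExpr at a count minimum of 10, the quasi-likelihood test and Benjamini-Hochberg adjustment over all genes. Genes were called at an adjusted p under 0.05 and an absolute log2FC over 0.6. SE is the absolute log2FC divided by the square root of F. In a second fit the α and β members were replaced by their sums. CPM values use TMM factors over all 8 libraries, and levels per kb the exon bases on the chromosome (TUBB: 2869). Stretches of 50 and 100 exon bases were searched on both strands of the GRCh37 primary assembly, coding sequences follow GENCODE canonical transcripts, and promoters are RefSeq's. Profiles used log2(CPM + 0.5).

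The members, the gene lists and the alternatives were chosen with earlier results of these data known. Named are all members, the 2 highest and 2 lowest called genes of each list at 6 days against control, the 2 genes nearest each member and genes that overlap or share stretches with one. Of the genes nearest a member, 2 are not reported here. Alternatives were DESeq2 (version 1.42.0), its size factors, library totals, other count filters, one fit of all libraries, a replicate block, an adjusted p under 0.01, other gene lengths and each library left out. Depth was 12095123 to 23166405 counts per library. The fits were tested on simulated data. Counts were handled with Python 3.11.15, numpy 2.4.6, pandas 2.3.3, numba 0.67.0 and matplotlib 3.10.9.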

Additional observations from a re-analysis of the deposited data

Results flagged for a closer look

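For 3 members the direct test of 6 against 3 days gave a call (edgeR, Benjamini-Hochberg adjusted p under 0.05, absolute log2FC over 0.6). TUBB, TUBB2A and TUBB4B passed the p threshold only. The log2 effect at 6 days exceeded that at 3 days by 0.70 for TUBA1B and by 0.80 for TUBA1C, and for TUBB3 the difference was −0.62. All libraries of the 2 time points were apart for these genes. With 2 libraries per condition no test for outlying libraries was possible.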

How the results depend on the processing

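Of 576 log2FC values of members and sums recomputed with another test, scaling, filter, fit or threshold, 568 kept their direction and their side of the call. Library totals turned TUBA1A and TUBG1 at 3 days against control to 0.030 and 0.026, neither called, put TUBB there at −0.56 and the β sum in MetaICM against 3 days at 0.57, both short of the limit, and TUBB4B in MetaICM against 6 days at −0.017. DESeq2 and its size factors gave −0.0044 each for the latter. At an adjusted p under 0.01, 1 member in place of 2 was higher in MetaICM than in control, and 664 genes in all were higher and 868 lower, against 1179 and 1430. The cause was not tested.

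With a replicate block, the counts of members called stayed the same in all 12 cases (for example 3 lower at 3 days against control), while over all genes 1606 were called higher and 2309 lower there, against 1389 and 2067. Whether replicate numbers pair the libraries cannot be settled with 2 libraries per condition. The correlation of same-numbered deviations ran from −0.26 (3 days with MetaICM) to 0.43 (control with 3 days) over the 6 pairs of conditions.

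With one library left out (the lone library of its condition is assumed to vary like the others), 250 of 288 values kept direction and call. Members lower at 3 days against control numbered 1 to 4, those higher at 6 days 0 to 1, those lower at 6 days 1 to 2, and those higher in MetaICM 0 to 4; lower at 6 against 3 days were 0 to 1. At 3 days against control the log2FC ranged from −0.28 to 0.20 for TUBA1A, −0.056 to 0.47 for TUBB2A, −0.36 to 0.11 for TUBB3, −0.44 to 0.13 for TUBB4B, −0.16 to 0.053 for TUBG1, −0.65 to −0.15 for the α sum and −0.64 to −0.30 for the β sum. At 6 days it ranged from −0.35 to 0.20 for TUBA1B, −0.047 to 0.49 for TUBB4B, −0.35 to 0.014 for TUBB6, −0.27 to 0.21 for the α sum and −0.31 to 0.021 for the β sum. For MetaICM against control it ranged from −0.072 to 0.34 for TUBA1C, −0.033 to 0.25 for TUBB, −0.047 to 0.51 for TUBB4B, −0.055 to 0.32 for TUBB6, 0.21 to 0.71 for the α sum and −0.016 to 0.33 for the β sum. For MetaICM against 3 days the β sum ranged from 0.59 to 0.67, and for MetaICM against 6 days TUBB2A from −0.10 to 0.049 and TUBB4B from −0.049 to 0.055. Over all genes, 851 in place of 1389 were higher at 3 days without the first 3-day library. In MetaICM against control 2116 were higher without control 1, 807 lower without the first MetaICM library, and 469 higher and 580 lower without the second.

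Shares of counts, with no length, kept 26 of 27 directions against control, the exception being TUBA1C at 3 days. The deposited length, an alternative chosen after seeing the data, kept 25. Depth limits TUBB2B, with 38 to 194 counts per library.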

Other observations

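The length given for TUBB in the deposited tables is 22953 bases, because the annotation places the gene on 8 sequences, chromosome 6 and its alternative haplotypes, and adds their exons; the exons on the chromosome itself cover 2869 bases. With the deposited length, TUBB would make up a mean of 14.3% of β-tubulin RNA per kb in control instead of 57.1%. The other 9 members have a single place and the same length either way.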
